A study of Homo sapiens with 12 samples.

Results

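The mesenchymal, matrix and adhesion genes described here are 45 genes chosen by name, with earlier results of these data known. They cover cadherins, transcription factors of the epithelial-mesenchymal transition, collagens, matrix glycoproteins, integrins, and matrix proteases with their inhibitors. Of the 45 genes, 44 had a row in the deposited table, and 40 of these reached 1 normalized count in 3 or more of the 12 libraries and were tested, among 18648 genes tested of 57773 in the table. Transcripts had been measured by RNA sequencing of total RNA from A498, an established human renal carcinoma cell line, transfected with small interfering RNA (siRNA), which directs the breakdown of the transcript it pairs with. The 4 groups had 3 biological replicates each. Double-knockdown cells had received siRNAs against both ELOVL2 and ELOVL5, siELOVL5 cells an siRNA against ELOVL5, siELOVL2 cells an siRNA against ELOVL2, and control cells a control siRNA. ELOVL2 and ELOVL5 encode elongases that lengthen polyunsaturated fatty acids. All libraries carry 1 batch label and come from 1 cell line, and it is not stated in the sources used here what the siRNA sequences were or when cells were harvested.

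In the epithelial-mesenchymal transition, epithelial cells lower E-cadherin and EpCAM and take up N-cadherin, vimentin and a fibronectin- and collagen-rich matrix. The SNAIL, ZEB and TWIST transcription factors repress the E-cadherin gene during this change. Integrins at the cell surface bind the matrix, metalloproteases and the plasmin system cut it, TIMP proteins inhibit the metalloproteases, and lysyl oxidases crosslink collagen. Renal tubule cells are unusual among epithelia in that many carry N-cadherin, and renal carcinomas often carry vimentin.

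Values are read counts that the authors had quantile-normalized, so that each library sums to 8.525 M normalized counts. The estimated depth before that step was 6.703 to 10.681 M reads, and a gene with no read could hold up to 0.917 normalized counts. ELOVL2 stood at 25.4, 26.5 and 19.9 normalized counts in double-knockdown cells and 27.0, 30.1 and 18.4 in siELOVL2 cells, against 299, 299 and 211 in control cells. ELOVL5 stood at 177, 172 and 187 in double-knockdown cells and 147, 141 and 156 in siELOVL5 cells, against 1939, 1954 and 2038 in control cells. Every library that received an siRNA was thus below every control library for the gene that siRNA targets. The kidney transcription factor PAX8 had 558 ± 37.2 normalized counts in double-knockdown cells, 613 ± 43.8 in siELOVL5 cells, 548 ± 37.5 in siELOVL2 cells and 603 ± 64.6 in control cells (SD, n = 3 each). The summed level of 9 kidney epithelium markers ranged over 9888 to 14081 in double-knockdown cells, 8614 to 9186 in siELOVL5 cells, 9997 to 13114 in siELOVL2 cells and 8617 to 11819 in control cells, and its part in the results was not tested. The sum was carried mainly by KRT8, with means of 7518 in double-knockdown cells, 5494 in siELOVL5 cells, 7522 in siELOVL2 cells and 6169 in control cells. Of the 8 kidney markers tested, 5 were below 0 against control cells in double-knockdown cells (median log2 fold change -0.14) and 7 in siELOVL5 cells (-0.09). In siELOVL2 cells 5 were below 0 (-0.13), and 0 were called by limma in each. The sums of 10 fibroblast and pericyte markers ranged over 304 to 344 in double-knockdown cells, 314 to 355 in siELOVL5 cells, 320.4 to 348 in siELOVL2 cells and 268 to 343 in control cells. The fibroblast markers LUM and THY1 were at 0 in all 12 libraries. Of the 7 of these markers tested, 5 were below 0 against control cells in double-knockdown cells (median log2 fold change -0.54), 3 in siELOVL5 cells (0.04) and 5 in siELOVL2 cells (-0.39), with 0 called by limma in each. NOTCH3, a pericyte marker, had 0, 1 and 1 normalized counts in double-knockdown cells, 3.83, 9.67 and 23.25 in siELOVL5 cells, and 3.83, 1 and 4.75 in siELOVL2 cells, against 7.67, 7.5 and 1.83 in control cells, and was called lower in double-knockdown than in siELOVL5 cells (limma adjusted p = 0.0415). The part of these markers in the results was not tested. The sums of 7 endothelial markers reached at most 22.7 in double-knockdown cells, 24.1 in siELOVL5 cells, 33.7 in siELOVL2 cells and 22.2 in control cells. Of 8 leukocyte markers, CD3E was at 0 in all 12 libraries, and the sums, carried mainly by CD68, ranged over 295 to 456 in double-knockdown cells, 296 to 326 in siELOVL5 cells, 307 to 331 in siELOVL2 cells and 316 to 366 in control cells.

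CDH2 (N-cadherin), THBS1 (thrombospondin 1) and COL5A1 (a collagen V chain) fell in both groups that had received the ELOVL2 siRNA, and FN1 (fibronectin) fell in the double knockdown. The other 36 of the 40 members tested passed the threshold in none of 7 comparisons. These calls are from a fit of group means that left out the replicate number. A second fit that took the number in, called a replicate block, called more members, named in the closing section. It called 11 members among 1866 genes in double-knockdown cells and 11 among 861 in siELOVL2 cells, each against control cells. Calls below are of the first fit unless the block is named. Where all libraries of a group lay to 1 side of the control libraries, this is given as description. The share of all genes tested that separate in this way was not computed. In double-knockdown cells against control cells, 4 of 40 members were lower and 0 higher at an adjusted p under 0.05 (limma with Benjamini-Hochberg adjustment over all genes tested), beside 4.42% of all genes called in either direction; 15 members, and 3505 of the 18648 genes tested, had an unadjusted p under 0.05. The ELOVL5 siRNA alone, against control cells, gave 0 of 40 members called by limma, beside 0.139% of all genes, and 2 members and 1783 genes had an unadjusted p under 0.05. In siELOVL2 cells against control cells, 3 of 40 members were lower and 0 higher, beside 1.36% of all genes, and 11 members and 2557 genes had an unadjusted p under 0.05. With 1 library left out the double-knockdown count ranged from 1 to 9 and the siELOVL2 count from 1 to 7. Without siELOVL5 replicate 3 the double-knockdown count was 9 members among 1775 genes called and the siELOVL2 count 7 among 829. Without control replicate 2 each was 1 member, among 325 genes called in double-knockdown cells and 63 in siELOVL2 cells. These 3 comparisons share the control libraries, and p-values measure the spread between cultures of 1 line. Since RNA was taken from whole cultures, fewer cells of a kind and less RNA per cell cannot be told apart.

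The knockdowns were also compared with each other. In double-knockdown cells against siELOVL5 cells, CDH2, THBS1 and COL5A1 were lower, 3 of 40 members, beside 2.77% of all genes, and 15 members and 3242 genes had an unadjusted p under 0.05. Between the single knockdowns, siELOVL5 cells against siELOVL2 cells, CDH2, THBS1 and COL5A1 were higher, 3 of 40 members, beside 3.01% of all genes, and 13 members and 3201 genes had an unadjusted p under 0.05. With 1 library left out these counts ranged from 1 to 5 and from 2 to 4; the first was 5, among 791 genes called, without siELOVL5 replicate 3 and 1, among 154 to 424 genes called, without siELOVL5 replicate 1 or 2 or any double-knockdown library. In double-knockdown cells against siELOVL2 cells, 0 members passed with limma, beside 0.059% of all genes, and 0 members and 672 genes had an unadjusted p under 0.05. The interaction term, which asks whether the effects of both siRNAs add on the log2 scale, was called for 0 members and for 0.0% of all genes with limma, and 0 members and 522 genes of all tested had an unadjusted p under 0.05.

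The median log2 fold change over the 40 members was -0.13 in double-knockdown cells against control cells, with 26 members below 0 and 14 above, beside a median of 0.02 over all genes tested. For siELOVL5 against control cells the members' median was 0.05, with 17 below 0 and 23 above, beside -0.00 over all genes. In siELOVL2 cells against control cells it was -0.10, with 26 below 0 and 14 above, beside 0.02 over all genes. The 40 members together held 1.83 ± 0.0235% of all normalized counts in double-knockdown cells, 2.07 ± 0.148% in siELOVL5 cells, 1.85 ± 0.0592% in siELOVL2 cells and 2.14 ± 0.0674% in control cells (SD, n = 3 each).

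**Figure D1:**
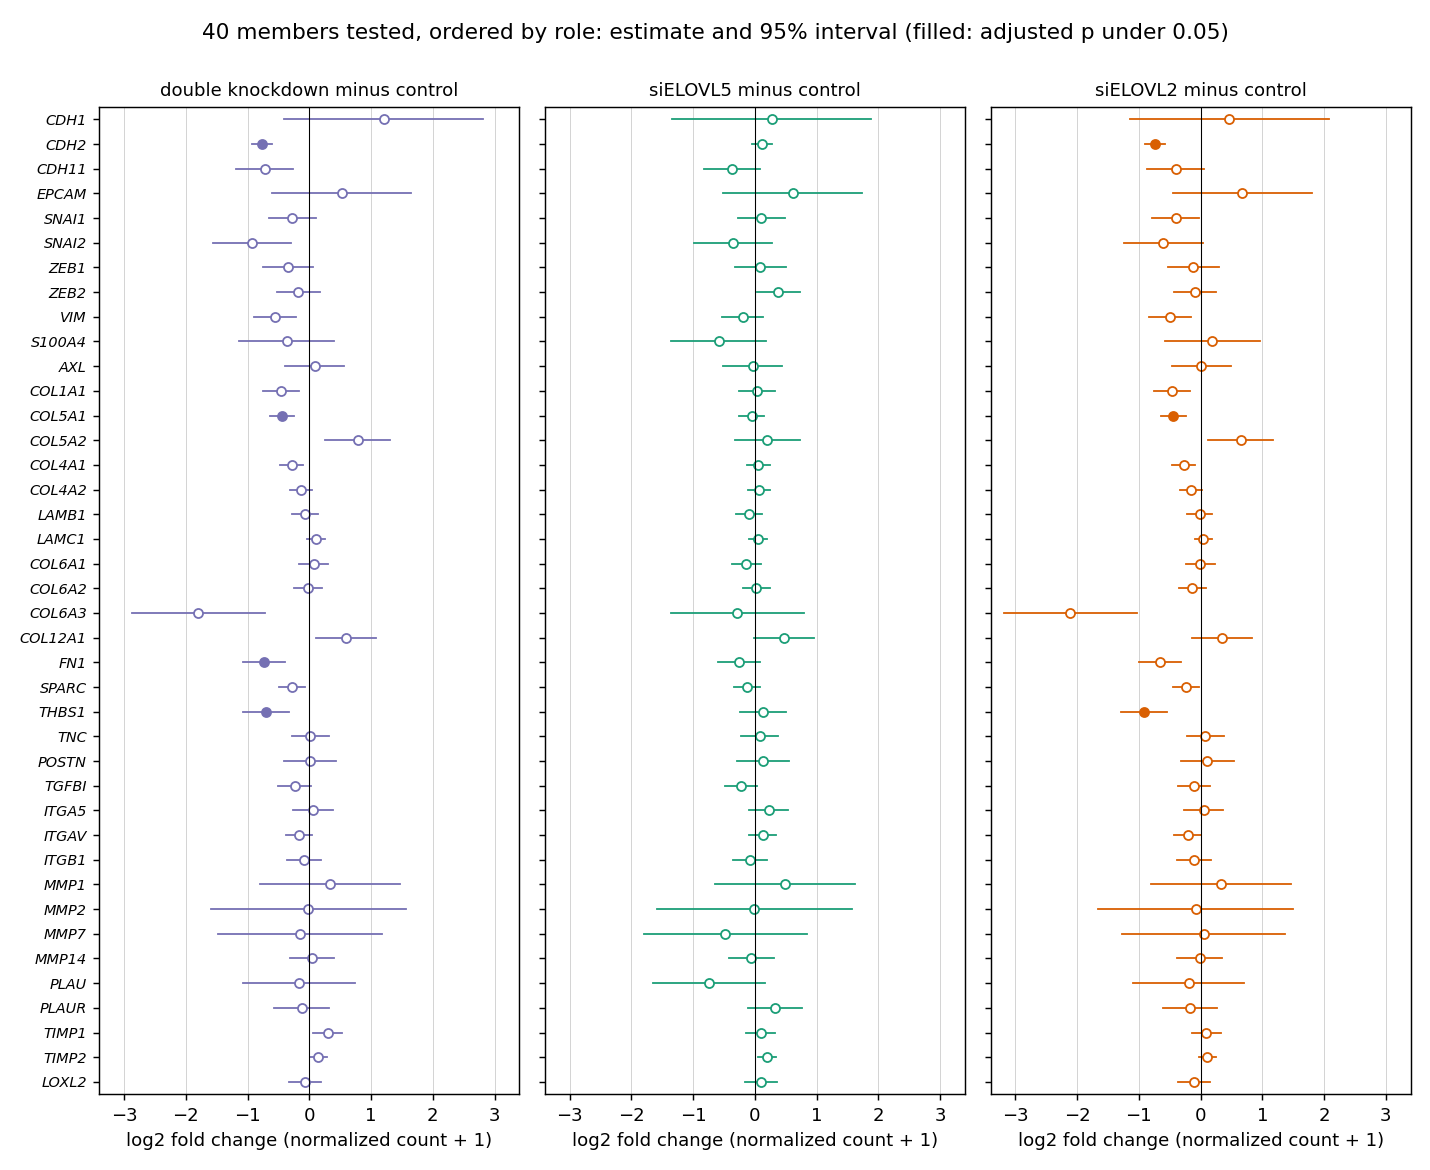
Log2 fold change, on the log2(normalized count + 1) scale, of the 40 members tested, ordered by role, in double-knockdown, siELOVL5 and siELOVL2 cells, each minus control cells. Points are limma estimates, bars are 95% intervals, and filled points have an adjusted p under 0.05: CDH2, COL5A1, FN1 and THBS1 in the double knockdown, none in siELOVL5 cells, and CDH2, COL5A1 and THBS1 in siELOVL2 cells.

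**Figure D2:**
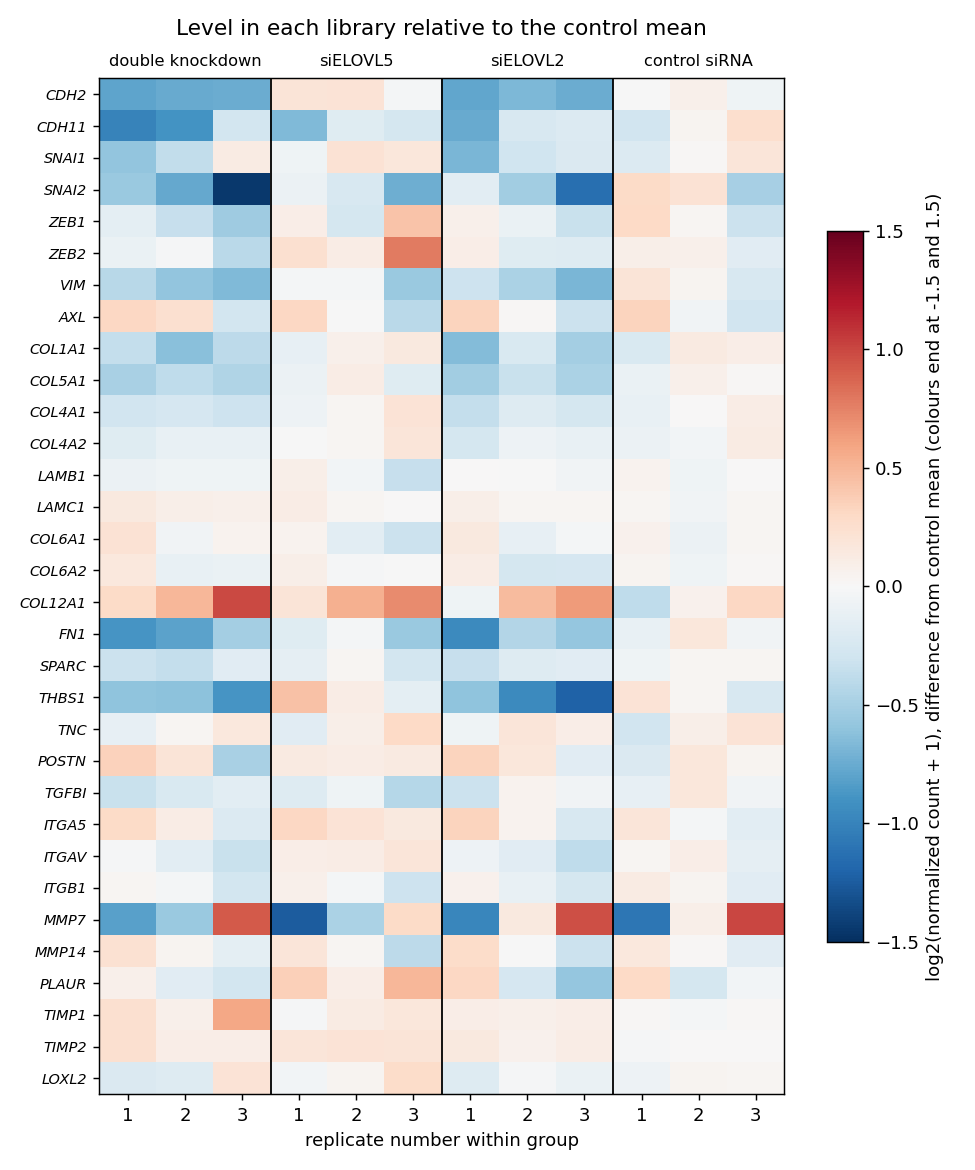
Level of the 32 members with a mean of at least 100 normalized counts over the 12 libraries, as the difference in log2(normalized count + 1) from the mean of the 3 control libraries. Columns are libraries by group, rows are genes by role, and the largest absolute difference is 1.45. CDH2 and COL5A1 are below the control mean in all double-knockdown and siELOVL2 libraries. Within each group MMP7 rises and AXL falls from replicate 1 to replicate 3.

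The promoters of the 4 genes called are shown because these genes fell in the double knockdown. Each window runs from 250 bases before to 50 bases after the annotated transcript start and comes from RefSeq on GRCh38.p14: chr18:28177081-28177380 on the minus strand for CDH2, chr15:39580829-39581128 on the plus strand for THBS1, chr9:134641553-134641852 on the plus strand for COL5A1, and chr2:215436019-215436318 on the minus strand for FN1. Sequences read 5′ to 3′ along the gene's strand, and capitals mark the motif matches described after them.
CDH2: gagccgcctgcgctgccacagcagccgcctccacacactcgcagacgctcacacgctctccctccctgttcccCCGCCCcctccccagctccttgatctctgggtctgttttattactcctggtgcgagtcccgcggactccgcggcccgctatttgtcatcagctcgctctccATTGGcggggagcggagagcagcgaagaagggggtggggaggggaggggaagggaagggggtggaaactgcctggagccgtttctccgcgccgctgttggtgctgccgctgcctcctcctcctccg
THBS1: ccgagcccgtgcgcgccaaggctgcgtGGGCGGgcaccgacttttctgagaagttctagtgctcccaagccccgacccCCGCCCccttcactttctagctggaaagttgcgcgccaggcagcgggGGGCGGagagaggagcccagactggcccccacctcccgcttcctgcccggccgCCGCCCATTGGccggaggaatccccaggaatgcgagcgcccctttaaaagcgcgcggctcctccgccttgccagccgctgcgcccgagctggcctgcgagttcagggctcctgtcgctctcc
COL5A1: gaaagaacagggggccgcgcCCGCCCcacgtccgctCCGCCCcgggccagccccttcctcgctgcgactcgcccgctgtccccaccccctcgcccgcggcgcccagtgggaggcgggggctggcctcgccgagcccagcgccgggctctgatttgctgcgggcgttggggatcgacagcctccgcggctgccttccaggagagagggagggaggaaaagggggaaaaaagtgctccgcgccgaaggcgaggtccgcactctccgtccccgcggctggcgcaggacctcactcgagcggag
FN1: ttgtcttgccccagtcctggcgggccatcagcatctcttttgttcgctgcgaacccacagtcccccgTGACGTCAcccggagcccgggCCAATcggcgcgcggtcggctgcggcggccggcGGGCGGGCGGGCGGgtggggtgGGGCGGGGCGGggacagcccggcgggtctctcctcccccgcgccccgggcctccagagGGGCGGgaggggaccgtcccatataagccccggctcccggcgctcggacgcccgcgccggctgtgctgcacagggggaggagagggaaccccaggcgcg
The windows are rich in G and C, at 67.0% for CDH2, 70.0% for THBS1, 74.0% for COL5A1 and 76.7% for FN1. All 4 hold the GC box GGGCGG, searched on both strands, which 44.6% of 27305 promoters of the same length hold and 19 of the 28 tested members with a promoter entry hold. The CCAAT box, searched as CCAAT on both strands, is in CDH2, THBS1 and FN1, in 8 of the 28 member promoters and in 35.7% of all promoters. FN1 was the only one of the 28 members with the cyclic AMP response element TGACGTCA, a palindrome that 1.98% of all promoters hold. CAGGTG, the E-box that SNAIL and ZEB factors bind, is in none of these 4 windows and in 3 of the 28 member promoters (AXL, S100A4 and ZEB1), against 20.6% of all promoters. The AP-1 site TGANTCA is in 4 of the 28 (ITGA5, MMP7, PLAUR and POSTN) against 7.76% of all promoters, and the TATA box TATAAA in 4 (COL6A2, MMP7, POSTN and S100A4) against 12.0%. These are matches of letters in a short window and not sites shown to be bound.

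CDH2 encodes N-cadherin, the calcium-dependent adhesion molecule of mesenchymal cells and of renal tubule cells. It had 1669, 1700.4 and 1726 normalized counts in double-knockdown cells, 3293, 3309 and 2825 in siELOVL5 cells, and 1673, 1809.5 and 1718 in siELOVL2 cells, against 2877, 3026 and 2749 in control cells. All double-knockdown and siELOVL2 libraries lay below all control and siELOVL5 libraries, while siELOVL5 and control libraries overlapped. CDH2 stood at 58.9% of the control mean in double-knockdown cells and 60.1% in siELOVL2 cells. The log2 fold change was -0.76 in double-knockdown cells (SE 0.08, limma adjusted p = 1.77e-04) and -0.73 in siELOVL2 cells (SE 0.08, limma adjusted p = 4.19e-04), each against control cells. The siELOVL5 estimate against control cells was 0.12, with a 95% interval of -0.04 to 0.28 (limma adjusted p = 0.628). The direct tests gave -0.88 for double-knockdown cells against siELOVL5 cells (limma adjusted p = 5.8e-05) and 0.85 for siELOVL5 cells against siELOVL2 cells (limma adjusted p = 6.61e-05). Double-knockdown and siELOVL2 cells differed by -0.03, with a 95% interval of -0.19 to 0.13. CDH2 passed the threshold in all of these called comparisons whichever single library was left out, with log2 fold changes of -0.80 to -0.73 in double-knockdown cells and -0.77 to -0.70 in siELOVL2 cells, each against control cells.

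CDH2 is also the 1 member of 40 whose 3′ UTR, in GENCODE 29, holds 1 of 3 words of 7 letters that an earlier scan of these same libraries had picked among genes lower with the ELOVL2 siRNA. The words were therefore chosen on these data, and the match is no independent evidence. The stretch of 30 bases around it is shown with the word ACGATAA in capitals. CDH2 lies on chromosome 18.
CDH2 3′ UTR: tgatttctgaaACGATAAgtaaaagacaaa
The word starts at base 310 of the 1187 bases of that UTR. Of 13916 genes with a 3′ UTR, 1.14% hold ACGATAA and 3.31% hold at least 1 of the 3 words. THBS1, COL5A1 and FN1, which also fell, hold none of them.

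CDH11 encodes cadherin 11, a cadherin of mesenchymal and stromal cells. It had 189.8, 204.5 and 315 normalized counts in double-knockdown cells, 240.1, 334 and 316 in siELOVL5 cells, and 225, 321 and 330.4 in siELOVL2 cells, against 312, 390.4 and 451.5 in control cells. Every group overlapped the control group, and the log2 fold change in the double knockdown was -0.72 (SE 0.21, limma adjusted p = 0.0774). Each double-knockdown library was, however, below the control library of the same number, and the replicate block called CDH11 lower there.

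The epithelial pair was close to absent. CDH1 encodes E-cadherin and EPCAM encodes EpCAM, the surface proteins that epithelia lose in the transition. CDH1 had 8.67, 0.833 and 1.67 normalized counts in double-knockdown cells, 2.67, 0 and 0.833 in siELOVL5 cells, and 4.5, 0 and 0.833 in siELOVL2 cells, against 1, 0.917 and 0 in control cells. These values correspond to 10 reads in the double-knockdown libraries together, 4 in siELOVL5, 6 in siELOVL2 and 2 in control libraries, or 22 in all. Its 95% interval for the double knockdown against control cells ran from -0.40 to 2.82 on the log2 scale, so a difference was not detectable at this depth. EPCAM had 4.83, 5.25 and 1.75 normalized counts in double-knockdown cells, 2.67, 4.75 and 4.75 in siELOVL5 cells, and 7.5, 4.75 and 1.83 in siELOVL2 cells, against 2.08, 1 and 4.5 in control cells. Its 48 reads were 11 in double-knockdown libraries, 14 in siELOVL5, 15 in siELOVL2 and 8 in control libraries, and every group overlapped the others. In control cells CDH2 stood at 648 ± 31.2 normalized counts per kilobase of exon and CDH1 at 0.128 ± 0.112 (SD, n = 3 each).

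**Figure D3:**
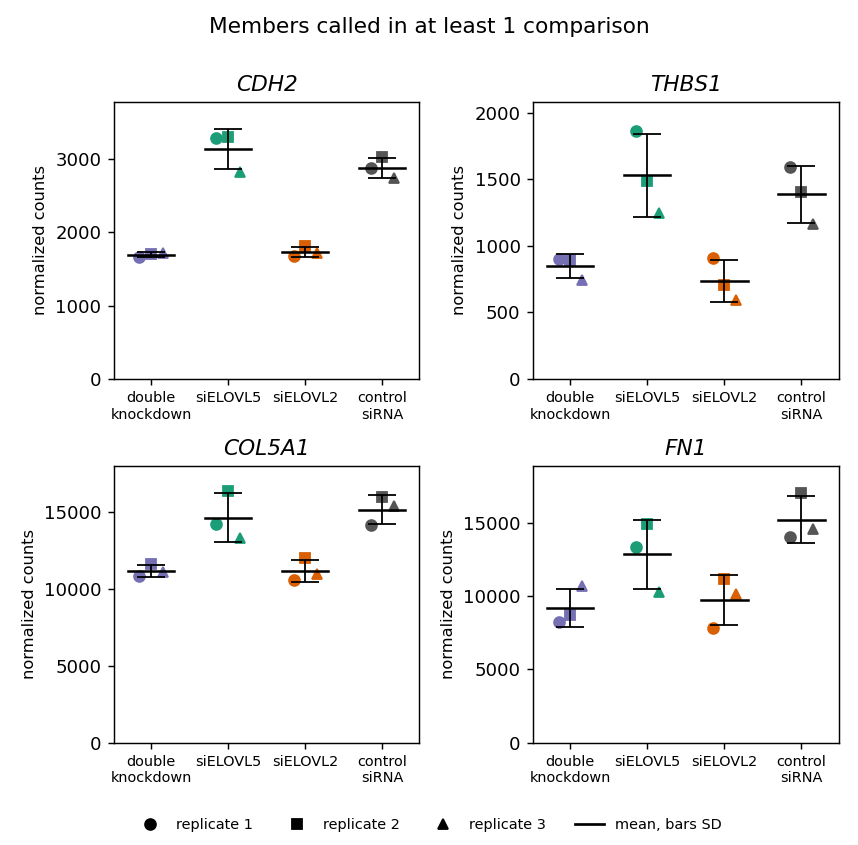
Normalized counts of CDH2, THBS1, COL5A1 and FN1 in each library, by group. Points are libraries with the replicate number as the symbol, lines are means and bars are SD over 3 libraries; all double-knockdown and siELOVL2 libraries of these 4 genes lie below all control libraries.

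Without the replicate block, the transcription factors of the transition gave no called member. With it, SNAI2 was called lower in double-knockdown and siELOVL2 cells and SNAI1 in siELOVL2 cells, each against control cells. SNAI1 and SNAI2 encode SNAIL and SLUG, zinc-finger repressors of the E-cadherin gene. SNAI1 had 350.3, 407 and 574 normalized counts in double-knockdown cells, 504, 611 and 591 in siELOVL5 cells, and 327, 429 and 453 in siELOVL2 cells, against 459, 534 and 598 in control cells. The siELOVL2 libraries lay below all control libraries, and the log2 fold change was -0.40 (SE 0.18, limma adjusted p = 0.332). SNAI2 had 148, 128 and 79.2 normalized counts in double-knockdown cells, 205, 185 and 131 in siELOVL5 cells, and 195, 152 and 99.4 in siELOVL2 cells, against 266, 253 and 155 in control cells. The double-knockdown libraries lay below all control libraries, and the log2 fold change was -0.93 (SE 0.29, limma adjusted p = 0.0985). The siELOVL2 libraries of SNAI2 overlapped the control libraries, with a log2 fold change of -0.60.

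ZEB1 and ZEB2 encode the related ZEB repressors. ZEB1 had 266, 232 and 203 normalized counts in double-knockdown cells, 315, 246 and 397 in siELOVL5 cells, and 310.3, 275 and 234 in siELOVL2 cells, against 364, 300.1 and 235 in control cells. The groups overlapped, and its log2 fold changes against control cells were -0.34 in double-knockdown cells, 0.09 in siELOVL5 cells and -0.12 in siELOVL2 cells (limma adjusted p = 0.361, 0.92 and 0.842). ZEB2 ranged over 499 to 653 normalized counts in double-knockdown cells, 712 to 1132 in siELOVL5 cells, and 579 to 707 in siELOVL2 cells, against 588 to 704 in control cells. The siELOVL5 libraries were above all control libraries, and the estimate was 0.37 on the log2 scale (adjusted p = 0.498 by limma); the highest value, 1132, was that of siELOVL5 replicate 3. TWIST1 had 0 reads in all 12 libraries, and over their 102.3 M reads a count of 0 allows up to 0.0293 reads per M reads (a limit of 3 reads, which covers counting error only). All 4 factors tested had estimates below 0 in double-knockdown cells and in siELOVL2 cells. Without the replicate block 0 of the 4 were called in either, beside 4.42% and 1.36% of all genes.

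VIM encodes vimentin, the intermediate filament protein of mesenchymal cells, and was the most abundant member. It had 15769, 14012 and 13311 normalized counts in double-knockdown cells, 20762, 20762 and 14339 in siELOVL5 cells, and 17039, 15154 and 13122 in siELOVL2 cells, against 24170.4, 21782 and 17859 in control cells. The double-knockdown and siELOVL2 libraries were below all control libraries. The log2 fold changes were -0.56 in double-knockdown cells (SE 0.16, limma adjusted p = 0.0648) and -0.49 in siELOVL2 cells (SE 0.16, limma adjusted p = 0.165), so neither passed the threshold without the replicate block. With the block VIM was called lower in both. AXL, a receptor tyrosine kinase of mesenchymal-like carcinoma cells, overlapped in all groups, at 2446 to 3691 normalized counts in double-knockdown cells, 2241 to 3679 in siELOVL5 cells, 2382 to 3745 in siELOVL2 cells and 2438 to 3754 in control cells. Its log2 fold change in the double knockdown was 0.09, with a 95% interval of -0.39 to 0.57. Within every group AXL was highest in replicate 1 and lowest in replicate 3, and that interval leaves the replicate number out. S100A4, a calcium-binding protein of motile cells, rested on 79 reads over all 12 libraries and had 5.89 ± 2.50 normalized counts in double-knockdown cells, 4.86 ± 1.68 in siELOVL5 cells, 8.78 ± 0.977 in siELOVL2 cells and 7.56 ± 0.851 in control cells (SD, n = 3 each).

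**Figure D4:**
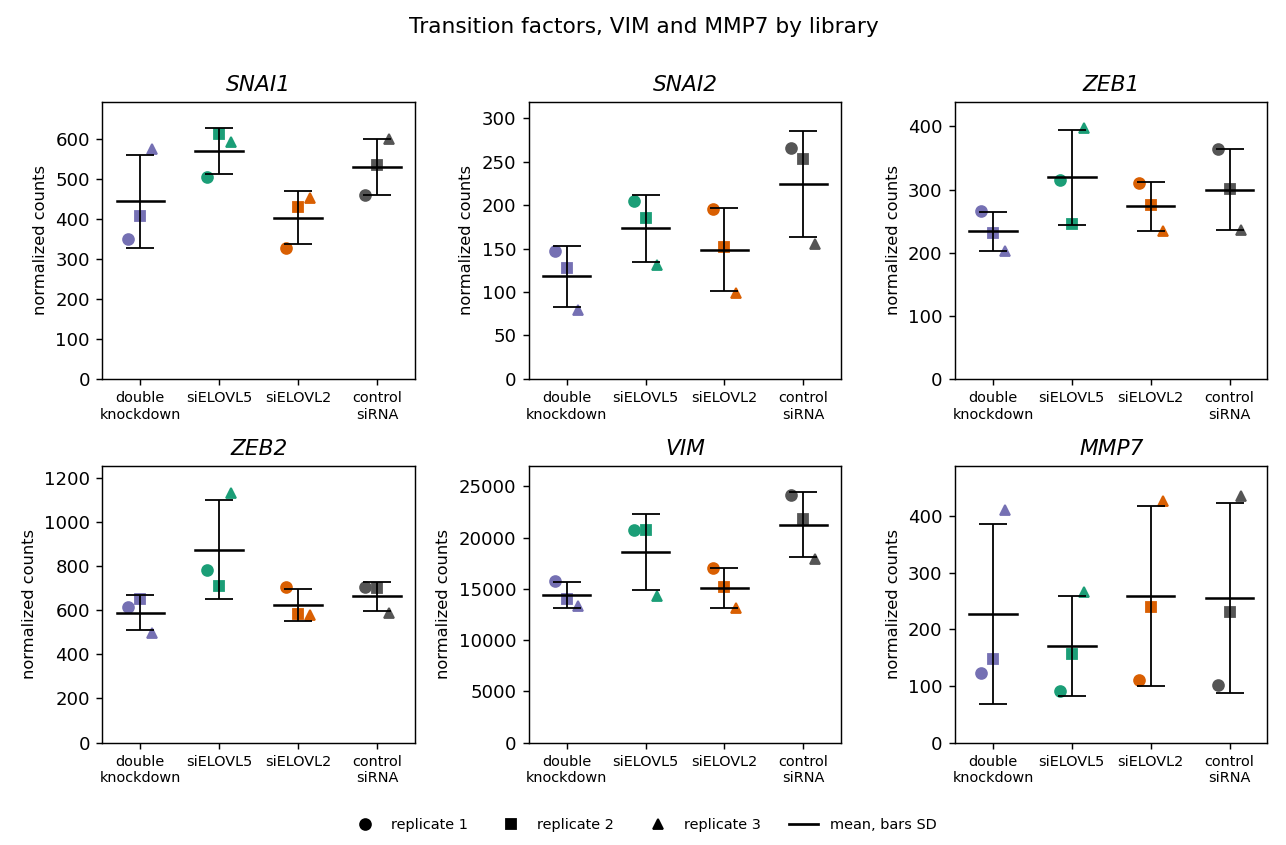
Normalized counts of the transition factors SNAI1, SNAI2, ZEB1 and ZEB2, of VIM and of the metalloprotease gene MMP7 in each library, by group. Points are libraries with the replicate number as the symbol, lines are means and bars are SD over 3 libraries. None of these genes passed the threshold without the replicate block. MMP7 spans 102 to 435 within the control group alone, and it rises from replicate 1 to replicate 3 in every group.

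Among the fibrillar collagens, COL5A1 fell, while COL5A2, which encodes its partner chain in collagen V, lay above control without being called. COL5A1 had 10825, 11596 and 11070.4 normalized counts in double-knockdown cells, 14193, 16379 and 13311 in siELOVL5 cells, and 10557, 11988 and 10928 in siELOVL2 cells, against 14126, 15959 and 15366 in control cells. All double-knockdown and siELOVL2 libraries lay below all control and siELOVL5 libraries. The log2 fold change was -0.44 in double-knockdown cells (SE 0.09, limma adjusted p = 0.0182) and -0.44 in siELOVL2 cells (SE 0.09, limma adjusted p = 0.0323). The direct tests gave -0.38 for double-knockdown cells against siELOVL5 cells (limma adjusted p = 0.0439) and 0.39 for siELOVL5 cells against siELOVL2 cells (limma adjusted p = 0.041). These COL5A1 calls rest on the full set of libraries. The double-knockdown call against control cells was lost when control replicate 2, control replicate 3, or either of double-knockdown replicates 1 and 2 was left out (adjusted p 0.0528 to 0.0971). Leaving out any 1 of the control or siELOVL2 libraries, or of double-knockdown replicates 1 and 2, ended the siELOVL2 call (adjusted p 0.0505 to 0.174). The calls between knockdowns were lost without 11 of the 12 libraries in turn for double-knockdown against siELOVL5 cells (adjusted p 0.0559 to 0.131, the exception being siELOVL5 replicate 3) and without 10 of 12 for siELOVL5 against siELOVL2 cells (adjusted p 0.0533 to 0.145, the exceptions being siELOVL5 replicate 3 and double-knockdown replicate 3).

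COL5A2 rested on 569 reads over all 12 libraries. It had 72.2, 51.3 and 55.9 normalized counts in double-knockdown cells, 30.4, 55.2 and 35.8 in siELOVL5 cells, and 58.3, 53.8 and 49.9 in siELOVL2 cells, against 43.0, 33.2 and 27.5 in control cells. All double-knockdown and siELOVL2 libraries lay above all control libraries, the opposite side from COL5A1, and the log2 fold changes were 0.78 in double-knockdown cells (SE 0.24, limma adjusted p = 0.0925) and 0.65 in siELOVL2 cells (SE 0.24, limma adjusted p = 0.240). COL1A1, the main chain of collagen I, had 306, 255 and 300.5 normalized counts in double-knockdown cells, 362, 416 and 436 in siELOVL5 cells, and 249.6, 335 and 277 in siELOVL2 cells, against 335, 431 and 422 in control cells. Its log2 fold change was -0.46 in double-knockdown cells (SE 0.13, limma adjusted p = 0.0765) and -0.46 in siELOVL2 cells (SE 0.13, limma adjusted p = 0.123). The replicate block called COL1A1 lower in both. COL1A2, the second chain of collagen I, and COL3A1, the chain of collagen III, had 1 read each over all 12 libraries and were not tested.

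**Figure D5:**
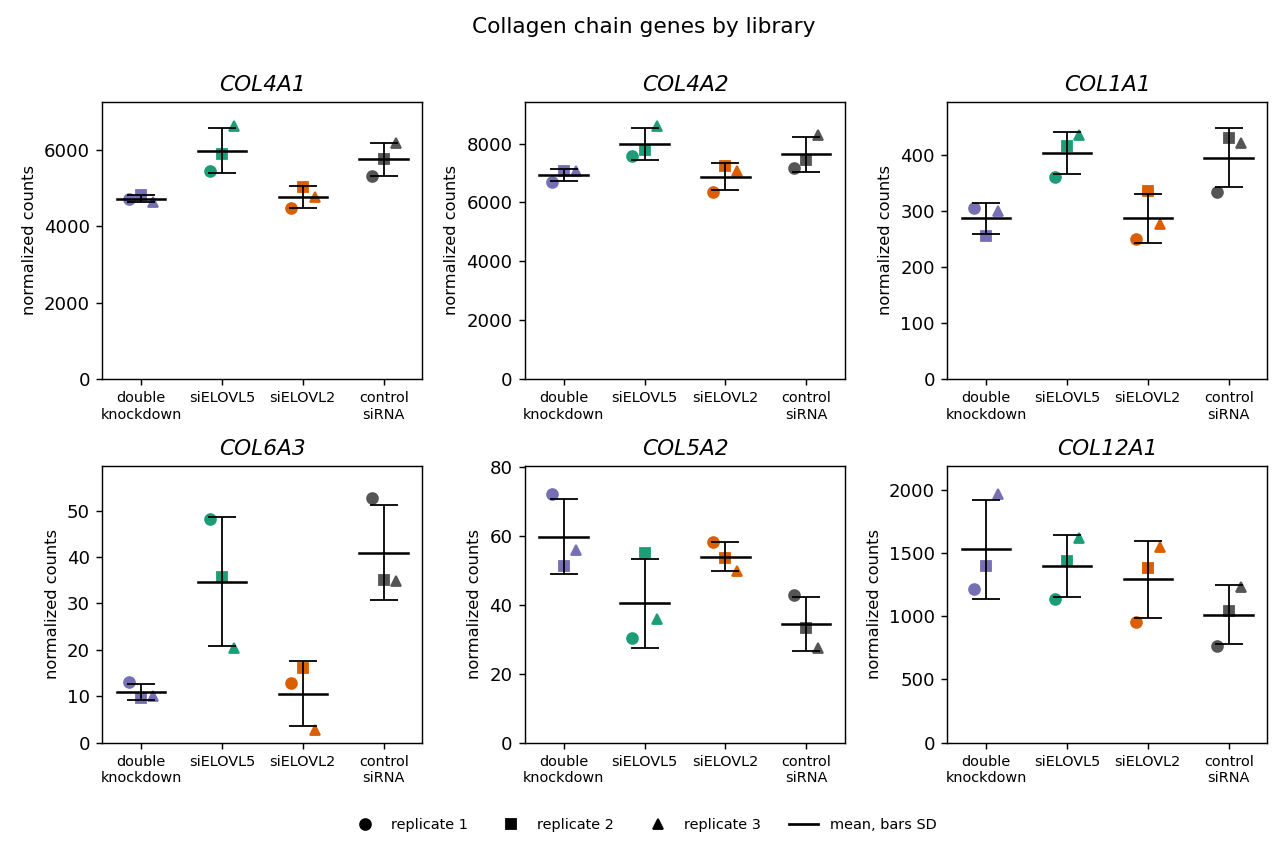
Normalized counts of 6 collagen chain genes in each library, by group. Points are libraries with the replicate number as the symbol, lines are means and bars are SD over 3 libraries. COL4A1, COL1A1 and COL6A3 have lower means in double-knockdown and siELOVL2 cells than in siELOVL5 and control cells, and COL5A2 has higher means there. None of the 6 passed the threshold without the replicate block.

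The basement membrane chains COL4A1 and COL4A2 form the common collagen IV molecule and are transcribed in opposite directions from a shared promoter on chromosome 13. The RefSeq starts are 127 bases apart on GRCh38.p14. The stretch from one start to the other, chr13:110307157-110307284 on the plus strand, is shown because both genes read outward from it, with its CCAAT box and GC box in capitals.
COL4A1-COL4A2: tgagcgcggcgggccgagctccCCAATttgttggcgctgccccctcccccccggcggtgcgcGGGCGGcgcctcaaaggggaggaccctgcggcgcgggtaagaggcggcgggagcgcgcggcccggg
COL4A1 had 4707, 4814 and 4637 normalized counts in double-knockdown cells, 5456, 5880 and 6613 in siELOVL5 cells, and 4469, 5038 and 4769 in siELOVL2 cells, against 5324, 5748 and 6180 in control cells. Its double-knockdown and siELOVL2 libraries lay below all control libraries, at 82.1% and 82.8% of the control mean. The log2 fold changes of COL4A1 were -0.28 in double-knockdown cells (SE 0.09, limma adjusted p = 0.085) and -0.27 in siELOVL2 cells (SE 0.09, limma adjusted p = 0.155). COL4A1 was called lower in both with the replicate block. COL4A2 had 6705, 7058 and 7058 normalized counts in double-knockdown cells, 7594, 7784 and 8612 in siELOVL5 cells, and 6357, 7230.5 and 7058 in siELOVL2 cells, against 7179.8, 7432 and 8290.5 in control cells. Its log2 fold changes were -0.14 in double-knockdown cells (SE 0.08, limma adjusted p = 0.420) and -0.15 in siELOVL2 cells (SE 0.08, limma adjusted p = 0.464), on the same side as COL4A1 with neither called. LAMB1 and LAMC1, the beta and gamma chains of laminin 111 and related laminins, lay near control. LAMB1 had 6981 ± 69.0 normalized counts in double-knockdown cells, 6913 ± 1052 in siELOVL5 cells, 7256 ± 130 in siELOVL2 cells and 7349 ± 304 in control cells, and LAMC1 had 9090.5 ± 246 in double-knockdown cells, 8743 ± 319 in siELOVL5 cells, 8731 ± 206 in siELOVL2 cells and 8456 ± 269 in control cells (SD, n = 3 each).

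Collagen VI is built from 3 different chains, and the least abundant of its transcripts had the largest estimates. COL6A3 had 13, 9.67 and 10.1 normalized counts in double-knockdown cells, 48.2, 35.7 and 20.3 in siELOVL5 cells, and 12.8, 16.2 and 2.67 in siELOVL2 cells, against 52.8, 35.2 and 34.8 in control cells. These values stand for 30 reads in double-knockdown, 118 in siELOVL5, 34 in siELOVL2 and 113 in control libraries. All double-knockdown and siELOVL2 libraries lay below all control and siELOVL5 libraries. COL6A3 had the largest fold changes of the 40 members tested in these comparisons, -1.80 in double-knockdown cells (SE 0.50, limma adjusted p = 0.0618) and -2.11 in siELOVL2 cells (SE 0.50, limma adjusted p = 0.0592), and neither passed the threshold without the replicate block. The block called COL6A3 lower in both. The siELOVL5 estimate for COL6A3 against control cells was -0.29, with a 95% interval of -1.37 to 0.79. COL6A1 had 4181 ± 394 normalized counts in double-knockdown cells, 3631 ± 476 in siELOVL5 cells, 3972 ± 389 in siELOVL2 cells and 3977 ± 212 in control cells, and COL6A2 had 4416 ± 489.8 in double-knockdown cells, 4532 ± 168 in siELOVL5 cells, 4092 ± 613 in siELOVL2 cells and 4457 ± 174 in control cells (SD, n = 3 each). Per kilobase of exon in control cells, COL6A1 stood at 938 ± 50.1 normalized counts and COL6A2 at 1012 ± 39.4, against 3.77 ± 0.947 for COL6A3 (SD, n = 3 each).

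COL12A1 encodes collagen XII, which links fibrils to their surroundings, and had estimates above 0 in every knockdown. It had 1214, 1399.8 and 1969 normalized counts in double-knockdown cells, 1135, 1433 and 1620.2 in siELOVL5 cells, and 949.8, 1379 and 1543 in siELOVL2 cells, against 764, 1041 and 1229 in control cells. Every group overlapped the control group, and the log2 fold changes were 0.59 in double-knockdown cells (SE 0.22, limma adjusted p = 0.168), 0.48 in siELOVL5 cells (SE 0.22, limma adjusted p = 0.528) and 0.35 in siELOVL2 cells (SE 0.22, limma adjusted p = 0.539). Each knockdown library was, however, above the control library of the same number. With the replicate block COL12A1 was called higher in each of these comparisons with control cells.

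Among the matrix glycoproteins, THBS1 and FN1 fell. Thrombospondin 1 is a secreted adhesive protein that can activate latent TGF-beta. THBS1 had 902, 894 and 743 normalized counts in double-knockdown cells, 1862, 1484 and 1245 in siELOVL5 cells, and 906, 706 and 594 in siELOVL2 cells, against 1588, 1406 and 1161 in control cells. All double-knockdown and siELOVL2 libraries lay below all control and siELOVL5 libraries. It stood at 61.1% of the control mean in double-knockdown cells and 53.1% in siELOVL2 cells, with log2 fold changes of -0.70 in double-knockdown cells (SE 0.17, limma adjusted p = 0.0377) and -0.92 in siELOVL2 cells (SE 0.17, limma adjusted p = 0.0214). The siELOVL5 estimate for THBS1 against control cells was 0.14, with a 95% interval of -0.24 to 0.51. The direct tests gave -0.84 for double-knockdown cells against siELOVL5 cells (limma adjusted p = 0.0229) and 1.06 for siELOVL5 cells against siELOVL2 cells (limma adjusted p = 0.00632). The call of THBS1 in double-knockdown against control cells did not hold when 1 of control replicates 1 and 2, siELOVL2 replicate 2, siELOVL5 replicate 2 or any double-knockdown library was left out (adjusted p 0.0538 to 0.160). The call in siELOVL2 against control cells did not hold when 1 of control replicates 1 and 2 or of siELOVL2 replicates 2 and 3 was left out (adjusted p 0.0922 to 0.113). The call in double-knockdown against siELOVL5 cells ended when 1 of siELOVL5 replicates 1 and 2 or any double-knockdown library was left out (adjusted p 0.0522 to 0.0804), and the call in siELOVL5 against siELOVL2 cells held whichever library was left out.

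FN1 encodes fibronectin, the adhesive glycoprotein that integrin alpha5 beta1 binds. It had 8214.5, 8708 and 10660.5 normalized counts in double-knockdown cells, 13311, 14903 and 10299 in siELOVL5 cells, and 7833, 11189 and 10102.5 in siELOVL2 cells, against 14012, 17039 and 14577 in control cells. All double-knockdown and siELOVL2 libraries lay below all control libraries, and siELOVL5 replicate 3 lay among them. The log2 fold change was -0.73 in double-knockdown cells (SE 0.16, limma adjusted p = 0.0219) and -0.66 in siELOVL2 cells (SE 0.16, limma adjusted p = 0.0656), and the difference between them was -0.07, with a 95% interval of -0.42 to 0.27. The siELOVL5 estimate for FN1 against control cells was -0.26, with a 95% interval of -0.60 to 0.09. The FN1 call in the double knockdown ended when any control library or 1 of double-knockdown replicates 1 and 2 was left out (adjusted p 0.0546 to 0.108). The replicate block called FN1 lower in siELOVL2 cells as well.

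The other matrix glycoproteins were not called. SPARC, a secreted collagen-binding protein, had 15378 ± 1117 normalized counts in double-knockdown cells, 17164 ± 1862 in siELOVL5 cells, 15919 ± 1045 in siELOVL2 cells and 18676 ± 708 in control cells (SD, n = 3 each). Its double-knockdown and siELOVL2 libraries were below all control libraries, with log2 fold changes of -0.28 in double-knockdown cells and -0.23 in siELOVL2 cells (limma adjusted p = 0.122 and 0.298). TGFBI, an integrin-binding protein induced by TGF-beta, had 14939 ± 882 normalized counts in double-knockdown cells, 15130 ± 1901 in siELOVL5 cells, 16453 ± 2096 in siELOVL2 cells and 17673 ± 1882 in control cells (SD, n = 3 each), and its log2 fold change in the double knockdown was -0.24 (limma adjusted p = 0.314). TNC encodes tenascin C and POSTN encodes periostin, matrix proteins of healing and stromal tissue. TNC had 1227 ± 120.2 normalized counts in double-knockdown cells, 1282 ± 206 in siELOVL5 cells, 1275 ± 109.5 in siELOVL2 cells and 1220.1 ± 211 in control cells (SD, n = 3 each). POSTN lay near control in the double knockdown, at 0.02 on the log2 scale, with a 95% interval of -0.41 to 0.44.

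The integrin subunits tested gave no call without the replicate block. ITGB1, the beta1 subunit shared by most matrix receptors, had 13851, 13311 and 11189 normalized counts in double-knockdown cells, 14339, 13311 and 10928 in siELOVL5 cells, and 14193, 12545 and 11318 in siELOVL2 cells, against 14723, 14012 and 12102 in control cells. The groups overlapped throughout, and its log2 fold change in the double knockdown was -0.09, with a 95% interval of -0.37 to 0.18. ITGAV, the alphav subunit of vitronectin and fibronectin receptors, had 5914, 5370.5 and 4754 normalized counts in double-knockdown cells, 6405, 6465 and 6764 in siELOVL5 cells, and 5692, 5324 and 4600.0 in siELOVL2 cells, against 6112, 6421 and 5456 in control cells. The siELOVL5 libraries of ITGAV were above all double-knockdown and siELOVL2 libraries, with log2 fold changes of -0.30 for double-knockdown against siELOVL5 cells (SE 0.10, limma adjusted p = 0.140) and 0.34 for siELOVL5 against siELOVL2 cells (SE 0.10, limma adjusted p = 0.0976). With the block ITGAV was called in both of these comparisons. ITGA5, the alpha5 subunit of the fibronectin receptor, was at 0.06 in double-knockdown cells, 0.22 in siELOVL5 cells and 0.05 in siELOVL2 cells against control cells on the log2 scale. ITGB3, the beta3 subunit, is listed only under names with a suffix and was not counted among the members tested.

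The matrix proteases, their inhibitors and the crosslinking enzyme LOXL2 gave 0 calls among 9 genes tested, beside 4.42% of all genes called in double-knockdown against control cells. MMP14 encodes the membrane-bound collagenase MT1-MMP and was the most abundant metalloprotease, at 4937 ± 642 normalized counts in double-knockdown cells, 4625 ± 910 in siELOVL5 cells, 4778 ± 976 in siELOVL2 cells and 4782 ± 544 in control cells (SD, n = 3 each). Its log2 fold change in the double knockdown was 0.04, with a 95% interval of -0.32 to 0.41. MMP7, matrilysin, spread widely within groups, at 123.3, 148 and 411 normalized counts in double-knockdown cells, 90.6, 156 and 265 in siELOVL5 cells, and 110.2, 240.0 and 427 in siELOVL2 cells, against 102, 231 and 435 in control cells. The groups overlapped, and in every group MMP7 rose from replicate 1 to replicate 3. The fit of group means, which left the replicate number out, gave a 95% interval of -1.47 to 1.17 for MMP7 in the double knockdown. That interval allows a change in either direction. MMP1, a collagenase, and MMP2, a gelatinase, rested on 8 and 57 reads over all 12 libraries. PLAU, the urokinase that activates plasmin, had 210 reads in all, and its receptor PLAUR had 440.2 ± 55.9 normalized counts in double-knockdown cells, 601 ± 80.9 in siELOVL5 cells, 437 ± 140 in siELOVL2 cells and 484 ± 97.8 in control cells (SD, n = 3 each).

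TIMP1, a secreted metalloprotease inhibitor, had 496, 441 and 625 normalized counts in double-knockdown cells, 415, 455 and 471 in siELOVL5 cells, and 449.8, 443.5 and 448 in siELOVL2 cells, against 422, 409 and 426 in control cells. The double-knockdown and siELOVL2 libraries were above all control libraries, with log2 fold changes of 0.30 in double-knockdown cells (SE 0.11, limma adjusted p = 0.155) and 0.09 in siELOVL2 cells (SE 0.11, limma adjusted p = 0.774), so neither was called. TIMP2, an inhibitor that also takes part in MMP2 activation, had 5802 ± 328 normalized counts in double-knockdown cells, 5981 ± 65.8 in siELOVL5 cells and 5647 ± 158 in siELOVL2 cells, against 5230 ± 63.9 in control cells (SD, n = 3 each). Every knockdown library of TIMP2 was above every control library, with log2 fold changes of 0.15 in double-knockdown cells, 0.19 in siELOVL5 cells and 0.11 in siELOVL2 cells (limma adjusted p = 0.236, 0.374 and 0.493). TIMP3 had 0 reads in all 12 libraries. LOXL2, a lysyl oxidase that crosslinks collagen, had 10697 ± 1863 normalized counts in double-knockdown cells, 11922 ± 1386 in siELOVL5 cells, 10330 ± 609 in siELOVL2 cells and 11112 ± 485 in control cells (SD, n = 3 each).

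Levels were compared between members per kilobase of exon, as normalized counts divided by the merged exon length in GENCODE 29, in control cells. VIM led at 11387 ± 1706, followed by TGFBI at 6147 ± 655, SPARC at 5046 ± 191, ITGB1 at 3464 ± 345 and LOXL2 at 3131 ± 137 (SD, n = 3 each). ITGB1 and LOXL2 are neighbours that differ by less than their SDs added together. COL5A1 at 1774 ± 110 and FN1 at 1672 ± 177 came next and lie within 1 SD of FN1 of each other. CDH2 at 648 ± 31.2, AXL at 617 ± 137 and COL4A2 at 589 ± 44.9 also lie close together, and THBS1 stood at 178 ± 27.6. The transition factors ran from SNAI1 at 315 ± 41.5 and SNAI2 at 92.4 ± 25.0 to ZEB2 at 49.7 ± 4.91 and ZEB1 at 46.6 ± 9.97, the last pair again within their spread. Of the 40 members tested, 8 had a mean under 100 normalized counts over the 12 libraries, namely CDH1, EPCAM, COL5A2, COL6A3, MMP1, MMP2, PLAU and S100A4.

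Other genes of the same processes were read from 10 lists with 259 genes, of which 231 were tested. These lists too were chosen with earlier results of these data known. In double-knockdown cells against control cells, 5 of the 231 were called higher and 11 lower, or 6.93% beside 4.42% of all genes tested. With the ELOVL5 siRNA alone 0 of 231 were called with limma, beside 0.139% of all genes. In siELOVL2 cells against control cells 1 was higher and 5 lower, or 2.60% beside 1.36% of all genes. Of the 231 genes, 122 were below 0 with the ELOVL2 siRNA alone and 114 with both siRNAs, each against control cells. Of all genes tested, 46.4% and 46.6% were below 0. Of the 10 lists, that of TGF-beta ligands, receptors, SMADs and regulators leaned most to 1 side of 0 in each. In siELOVL2 cells 24 of its 28 genes were below 0, with a median of -0.09 beside 0.02 over all genes. In the double knockdown 21 of 28 were below 0, with a median of -0.08 beside 0.02. Whether a list as a whole moved was not tested, and limma called 2 of these 28 genes in each comparison. Of these, PMEPA1, a membrane protein that limits SMAD signalling, fell to 1070 ± 69.7 normalized counts in double-knockdown cells and 1360 ± 126 in siELOVL2 cells, against 2019 ± 290.1 in control cells (SD, n = 3 each). The log2 fold changes of PMEPA1 were -0.91 in double-knockdown cells and -0.56 in siELOVL2 cells (limma adjusted p = 5.1e-04 and 0.023). SKIL, a SMAD co-repressor, fell too, with log2 fold changes of -0.47 in double-knockdown cells and -0.40 in siELOVL2 cells (limma adjusted p = 0.00563 and 0.0291).

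Among other matrix glycoproteins and proteoglycans, CD44, the hyaluronan receptor, fell to 10698 ± 1128 normalized counts in double-knockdown cells and 12479 ± 2279 in siELOVL2 cells, against 19391 ± 2071 in control cells (SD, n = 3 each; log2 fold changes -0.86 and -0.65, limma adjusted p = 0.00285 and 0.0284). SPOCK1 (testican 1), NOV (CCN3) and VCAN (versican) also fell in the double knockdown, with log2 fold changes of -0.46, -0.80 and -0.55 (limma adjusted p = 0.0115, 0.0329 and 0.0392). Thus 4 of 27 genes of that list were lower and 0 higher, beside 4.42% of all genes called in either direction. ITGB6, an integrin subunit that takes part in activating latent TGF-beta, fell in both, with log2 fold changes of -1.04 in double-knockdown cells and -1.26 in siELOVL2 cells (limma adjusted p = 0.0388 and 0.0295). It was 1 of 18 other integrin subunits, beside 4.42% and 1.36% of all genes called. TPM1 (tropomyosin 1) fell likewise, with log2 fold changes of -0.65 in double-knockdown cells and -0.75 in siELOVL2 cells (limma adjusted p = 0.0402 and 0.0406), and TLN1 (talin 1) rose by 0.38 in the double knockdown (limma adjusted p = 0.0194), among 27 focal adhesion and actin linker genes.

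In double-knockdown cells, the tight junction gene CLDN4 and the plakoglobin gene JUP rose, with log2 fold changes of 0.90 and 0.69 (adjusted p = 0.0181 and 0.0362 by limma), 2 of 26 junction genes, with 0 lower. For this list and the lists that follow, the share of all genes called was 4.42% in double-knockdown cells and 1.36% in siELOVL2 cells. Among 19 other collagen chains COL27A1 rose and COL8A1 fell, with log2 fold changes of 0.34 and -0.55 (limma adjusted p = 0.00511 and 0.0183). Among 27 collagen folding and crosslinking enzymes, PLOD2, a lysyl hydroxylase, and LOXL3 fell, with log2 fold changes of -0.69 and -0.90, and BMP1, the procollagen C-proteinase, rose by 0.25 (limma adjusted p = 0.0156, 0.0275 and 0.0414). CTSL (cathepsin L) rose by 0.36 in siELOVL2 cells (limma adjusted p = 0.0415), the 1 call against control cells among 30 other proteases and inhibitors. The lists of 12 other transition factors and splicing regulators and of 17 other laminins and basement membrane genes had 0 calls against control cells with limma.

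In double-knockdown cells against siELOVL5 cells, 8 of the 231 genes were higher and 5 lower, or 5.63% beside 2.77% of all genes. The junction genes CTNND1 (p120 catenin) and JUP were higher, with log2 fold changes of 0.25 and 0.72, as were the collagen-modifying genes LEPREL4 (P3H4) and ADAMTS14, at 0.43 and 0.94. CTSL and BSG (basigin, an inducer of metalloproteases) were higher at 0.50 and 0.27, and the glypican gene GPC1 and the fibulin gene FBLN1 at 0.43 and 0.30. The genes called lower were ITGB8 at -0.95, LOXL3 at -0.97, CD44 at -0.64, SKIL at -0.72 and LTBP1, which encodes a protein that stores latent TGF-beta in the matrix, at -0.57. In siELOVL5 relative to siELOVL2 cells, 6 of the 231 were higher and 5 lower, or 4.76% beside 3.01% of all genes. The log2 fold changes of those higher were 0.93 for ITGB8, 0.84 for LOXL3, 0.65 for SKIL, 0.59 for LTBP1, 0.58 for ZYX (zyxin) and 0.75 for TPM1. Those lower were PLOD2 at -0.72, LEPREL4 at -0.40, ADAMTS14 at -0.85, CTSL at -0.60 and FBLN1 at -0.35. In double-knockdown cells against siELOVL2 cells and for the interaction, 0 of the 231 were called with limma.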

How the data were processed

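RNA sequencing of A498 cells, from both ends with 36 bases each per the labels, gave 12 libraries in 4 siRNA groups. The deposited table holds a normalized signal per gene, which the authors labelled normalized. All 12 columns hold the same set of values, all multiples of 1 over 12, as quantile normalization of read counts gives. That step removes differences in overall signal between libraries. For aligner, build and annotation nothing is stated in the sources used here. Columns were matched to groups by their names.

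The log2(value + 1) data were fitted with limma 3.58.1 (R 4.3.3), using the means of all 4 groups with an intensity trend and 8 residual degrees of freedom. Genes reaching 1 in 3 or more libraries were tested and p-values adjusted by Benjamini-Hochberg within each comparison, with a threshold of 0.05. Fold changes of low genes are understated on this scale. Reads behind low values, and depth, were recovered from the order of tied values, tested on simulated data. Alternatives were a replicate block, no trend, the compared groups alone, library weights, a pseudocount of 5, no filter, a filter of 10, another scaling, and each library left out.

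The members and gene lists were chosen with earlier results of these data known. Values per library were printed for every member called in any comparison, with or without a replicate block, and for CDH1, CDH2, EPCAM, VIM, FN1, SNAI2, ZEB1, COL4A1, COL4A2, ITGB1 and TIMP1; COL5A2 and MMP7 were added after their values were seen, and other members are given by means or ranges. For each of the 10 lists of related genes, up to 4 called genes per comparison were named, those with the smallest adjusted p (all are named between knockdowns), or with none called up to 2 called with the block, in the closing section. Of the 259 genes on them, 251 were found under the same name, 7 under another symbol, and 1 had no row. KRT8 and KRT18 of the kidney markers and DCN, LUM and ACTA2 of the fibroblast markers are also on these lists. Promoters are from RefSeq (GRCh38.p14), with entries for 28 members, and exon lengths and UTRs from GENCODE 29. These may differ from the authors' annotation.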

Additional observations from a re-analysis of the deposited data

How the results depend on the processing

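CDH2 kept its call in all 20 alternatives in each of its 4 comparisons, with a highest adjusted p of 0.0341. Over the 13 member results called and their 260 alternative values, 189 kept direction and call, 71 kept direction and lost the call, 54 of them with 1 library left out, and 0 reversed. In the order double-knockdown minus control, siELOVL2 minus control, double-knockdown minus siELOVL5, siELOVL5 minus siELOVL2, where 4, 3, 3 and 3 members were called, library weights called 11, 7, 8 and 8, while the genes called of all tested went up to 2241, 1569, 1251 and 1643, beside 825, 254, 516 and 562 without weights. Without the intensity trend 1, 1 and 1 were called in the first 3 of these comparisons (413 genes of all in the first, beside 825 with it). A minimum value of 10 called 5 in siELOVL2 minus control (344 genes of all), and fitting the compared groups alone called 1 and 1 in the last 2 (21 and 49 genes of all). Leaving out 1 library gave 1 to 9, 1 to 7, 1 to 5 and 2 to 4 members, and 0 to 0 in siELOVL5 minus control, double-knockdown minus siELOVL2 and the interaction. Without siELOVL5 replicate 3 the first 3 counts were 9, 7 and 5, among 1775, 829 and 791 genes called. The first was 1 or 2 without any 1 of the control libraries or double-knockdown replicate 1 or 2. The second was 1 with control replicate 1, control replicate 2, siELOVL2 replicate 2 or siELOVL2 replicate 3 left out. The third was 1 without siELOVL5 replicate 1 or 2 or any 1 of the double-knockdown libraries. The SE of CDH2 in double-knockdown minus control was 0.054 without siELOVL5 replicate 3, beside 0.075 with all libraries. A fit with a library left out also has fewer samples, and why the counts rose or fell was not tested. Companion genes were not refitted without single libraries.

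Groups share replicate numbers, and nothing in the labels says what a number marks. Deviations from the group means correlated at -0.00123 to 0.212 over the 18 same-numbered pairs of libraries, 9 of them over 0.1. The median was -0.0377 over the other pairs. Same-numbered pairs of replicate 2 ran from -0.00123 to 0.0317, and those of replicates 1 and 3 from 0.0768 to 0.212. Every pair of a replicate 1 with a replicate 3 was negative, down to -0.215 (siELOVL2 replicate 1 and double-knockdown replicate 3). The main fit left the number out, the block took it in, and what the number marks was not tested. As a hint from the data, 10 of 12 libraries, not all, had their highest mean correlation with the libraries of their own number in the other groups. For 14 of the 40 members (35.0%) the same-numbered library was highest in all 4 groups, beside 12.4% of all genes tested. With the replicate block 11, 11, 10 and 10 members were called in the 4 comparisons, among 1866, 861, 1368 and 1317 genes of all, and 1 in siELOVL5 minus control (COL12A1, higher) among 99 genes. In the double knockdown against control cells, the block added CDH11, COL1A1, COL4A1, COL6A3, SNAI2 and VIM as lower and COL12A1 as higher. In siELOVL2 against control cells it added COL1A1, COL4A1, COL6A3, FN1, SNAI1, SNAI2 and VIM as lower and COL12A1 as higher. In double-knockdown against siELOVL5 cells it added COL1A1, COL4A1, COL6A3, ITGAV, SNAI1, SNAI2 and VIM as lower, and in siELOVL5 against siELOVL2 cells COL1A1, COL4A1, COL4A2, COL6A3, ITGAV, SNAI1 and VIM as higher. It called 0 members in double-knockdown minus siELOVL2 and in the interaction. SNAI2, highest in replicate 1 and lowest in replicate 3 of all 4 groups, is among the members whose same-numbered libraries rank alike. Genes called with the block are named next, up to 2 per list, for lists with no main-fit call in the comparison at hand. Against control cells these were ELF3, FOXC2, LAMA4, ADAMTS9 and CTSL in the double knockdown, LAMA4, PLOD2 and ZYX in siELOVL5 cells, and ELF3, CDH6 and LOXL3 in siELOVL2 cells. Some of these lists and genes had main-fit calls in other comparisons. By the same rule the block called ELF3, COL4A6, COL18A1, LAMA5, DAG1, TPM1 and ZYX in double-knockdown against siELOVL5 cells, and ELF3, RBFOX2, KRT8, JUP, COL4A5, LAMA5 and LAMA4 in siELOVL5 against siELOVL2 cells. Members resting on few reads (CDH1, EPCAM, MMP1, MMP2, S100A4) allow large differences either way.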
